A study of Mus musculus with 8 samples.

Results

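The Snrpn-Ndn cluster is a group of imprinted genes on mouse chromosome 7, described here through 7 genes, Snrpn, Snhg14, Ndn, Magel2, Mkrn3, Peg12 and Ube3a. They were picked by name from the 55422 features counted, and all 7 were found. Because earlier results of these data had shown higher levels of some of them in Tet-TKO cells, their difference between genotypes is given as a description. Calls, counts of tests below a p-value limit, counts without overlap and percentiles of these genes rest on the values that led to the choice. They are no independent evidence. The cells came from chimaeras in which ES cells of 1 line without Tet1, Tet2 and Tet3 (Tet-TKO), of mixed C57BL/6J and 129Sv background and carrying CAG-driven H2B-tdTomato, had entered C57BL/6J blastocysts carried by CD1 recipients. Embryos were pooled and sorted by flow cytometry into tdTomato+ Tet-TKO cells and tdTomato- WT host cells, which were profiled by droplet-based 3′ single-cell RNA-seq. E8.5 was covered by 4 libraries of Tet-TKO cells and 2 of WT host cells, and E7.5 by 1 library per genotype. Loss of the Tet genes, strain and origin from cultured ES cells cannot be told apart. Nothing in the labels says that replicates came from separate pools of embryos, so the spread between them may be technical.

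An imprinted gene is expressed from the allele of one parent. In this region, whose human counterpart is the Prader-Willi and Angelman syndrome locus, Snrpn, Snhg14, Ndn, Magel2, Mkrn3 and Peg12 are expressed from the paternal chromosome, and an imprinting centre at the Snrpn promoter carries DNA methylation on the maternal chromosome. Ube3a is expressed from the maternal chromosome in neurons and from both chromosomes in most other cells. TET enzymes oxidise methylated cytosine and take part in its removal. The libraries measured neither methylation nor the parental origin of a transcript.

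In the GENCODE M21 annotation of mm10 (GRCm38), the genes lie in separate groups. Ube3a spans 59228750 to 59311536 of chromosome 7 on the plus strand. Snhg14 (59307924 to 59975759) and Snrpn (59982495 to 60140219) follow on the minus strand, and the far end of Snhg14 overlaps Ube3a. Ndn (62346569 to 62350262) starts 2206 kb beyond the annotated start of Snrpn. It is followed by Magel2 (62377010 to 62381640), both on the plus strand, and by Mkrn3 (62417593 to 62420139) and Peg12 (62461871 to 62464510) on the minus strand. Snurf, a reading frame at the start of the Snrpn transcript, was listed at 0 UMIs (unique molecular identifiers) in all 8 libraries. Cell Ranger counts only reads that fit a single gene, so the split of reads between Snrpn, Snurf and other gene models that overlap them is uncertain.

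RefSeq promoter windows of build GRCm38.p6, from 250 bases before to 50 bases after a start site, were found for all 7 genes. They are shown because genes of both groups had higher levels in Tet-TKO cells and because an 8-base palindrome, CGCATGCG, recurs among them. It lies within the consensus bound by the transcription factor NRF1, and it was chosen after the sequences had been read. The window shared by Snhg14 and the farthest Snrpn start, the window at the annotated Snrpn start, that of the Snrpn promoter at the imprinting centre and that of Ndn are given 5′ to 3′, with the palindrome in capitals.
Snhg14 and Snrpn, chr7:60450128-60450427, minus strand: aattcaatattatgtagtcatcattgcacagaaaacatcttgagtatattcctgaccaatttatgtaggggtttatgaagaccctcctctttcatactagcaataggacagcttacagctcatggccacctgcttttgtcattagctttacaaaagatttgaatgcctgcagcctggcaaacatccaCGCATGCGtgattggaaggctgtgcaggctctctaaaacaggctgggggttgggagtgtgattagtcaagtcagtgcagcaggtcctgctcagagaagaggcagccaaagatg
Snrpn at the annotated start, chr7:60140176-60140475, minus strand: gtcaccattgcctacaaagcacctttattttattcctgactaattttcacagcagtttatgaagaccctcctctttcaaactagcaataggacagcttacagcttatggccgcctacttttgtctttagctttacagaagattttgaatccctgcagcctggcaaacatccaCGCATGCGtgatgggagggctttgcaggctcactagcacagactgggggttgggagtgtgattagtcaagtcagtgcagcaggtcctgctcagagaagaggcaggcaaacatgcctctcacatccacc
Snrpn at the imprinting centre, chr7:60005150-60005449, minus strand: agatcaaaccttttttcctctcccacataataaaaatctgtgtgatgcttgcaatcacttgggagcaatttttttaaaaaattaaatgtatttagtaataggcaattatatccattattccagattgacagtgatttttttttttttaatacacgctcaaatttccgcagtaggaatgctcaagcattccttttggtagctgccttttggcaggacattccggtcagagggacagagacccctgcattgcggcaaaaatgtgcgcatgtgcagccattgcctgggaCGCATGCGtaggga
Ndn, chr7:62348027-62348326, plus strand: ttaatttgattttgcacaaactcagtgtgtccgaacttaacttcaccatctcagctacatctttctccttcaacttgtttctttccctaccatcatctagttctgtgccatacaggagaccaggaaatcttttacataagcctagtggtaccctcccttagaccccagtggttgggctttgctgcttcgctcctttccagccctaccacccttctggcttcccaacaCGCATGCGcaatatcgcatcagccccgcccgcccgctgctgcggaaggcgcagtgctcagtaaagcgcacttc

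The palindrome, which reads the same on both strands, was in 5 of the 9 windows of the cluster and in those of 3 genes, Snrpn, Snhg14 and Ndn. Of all 32817 promoter windows, 611 (1.86%) held it. In the Ndn window it began 23 bases before the start site and in the Snrpn window at the imprinting centre 37 bases after it. The windows of Magel2, Mkrn3, Peg12 and Ube3a did not hold these letters. The 3 upstream Snrpn windows were 79.7%, 81.1% and 81.4% identical to each other when aligned in pairs, and 50.6% to 52.9% identical to the window at the imprinting centre. CG dinucleotides numbered 2 in the farthest Snrpn window, 7 at the imprinting centre, 11 for Ndn and 29 for Ube3a, with a median of 7 over all windows.

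After filtering, 1012 to 9552 cells and 65082949 to 136773098 UMIs remained per library. A tdTomato UMI was found in 60.8% to 87.2% of the cells of Tet-TKO libraries and in 0.532% to 0.841% of those of WT host libraries. Tet1, Tet2 and Tet3 transcripts were still counted in Tet-TKO libraries and therefore did not check the labels. At E8.5, Tet-TKO libraries 1 and 2 resembled each other closely, as did libraries 3 and 4 (chi-square per degree of freedom of 14.2 and 16.1, against 159 to 171 between these pairs). Tet-TKO libraries 1 and 2 held 7045 and 9552 cells at median depths of 18763 and 12176 UMIs. Tet-TKO libraries 3 and 4 held 2304 and 1012 cells at 40386.5 and 68704 UMIs. Any 2 libraries shared at most 28 cell barcodes. Erythroid-like cells were 9.88% and 21.6% of the WT host libraries and 0.326% to 1.30% of the Tet-TKO libraries at E8.5. In counts summed over a library, the number of cells of a type and the RNA per cell cannot be told apart.

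Over whole libraries at E8.5, Snrpn, Snhg14, Ndn and Magel2 were called as higher in Tet-TKO cells, by 2.73-fold to 3.59-fold. Mkrn3 and Peg12 stood 2.90-fold and 2.35-fold higher without a call, and Ube3a 1.19-fold higher without a call. A call is an adjusted p under 0.01 over all genes in edgeR's quasi-likelihood test together with an absolute log2 fold change of at least 1. Of the 21075 genes tested, 0.588% were called as higher, and the count of 4 among 7 follows from how the genes were chosen. The 4 calls were lost without WT host library 1, at log2 fold changes of 1.79 for Snrpn and Snhg14, 1.22 for Ndn and 1.53 for Magel2. When Tet-TKO libraries 1 and 2 and libraries 3 and 4 were summed, 0 of 20799 genes were called in either direction, and the log2 fold changes of the 4 genes were 1.38 to 1.76.

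Snrpn encodes SmN, a protein of the small nuclear ribonucleoproteins that splice RNA. Snrpn stood at 226, 205, 238 and 274 CPM (UMIs scaled to a common library total) in libraries 1 to 4 of Tet-TKO and at 68.6 and 62.9 CPM in the 2 of WT host. The lowest Tet-TKO library was far above the higher WT host library. The means were 236 ± 29.2 CPM (SD, n = 4) and 65.7 ± 4.03 CPM (SD, n = 2). The log2 fold change was 1.75 (SE 0.11).

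Snhg14 is the long non-coding host transcript of small nucleolar RNAs of the region and reaches antisense into Ube3a. It stood at 52.9, 48.7, 54.5 and 63.5 CPM in Tet-TKO and at 18.1 and 14.6 CPM in WT host libraries, with no overlap. The log2 fold change was 1.66 (SE 0.13). Per Snhg14 UMI there were 4.21 to 4.56 Snrpn UMIs in the Tet-TKO libraries of both stages and 3.79 to 5.01 in the WT host libraries. At E8.5 the ratio was 4.21 to 4.37 in Tet-TKO against 3.79 and 4.30 in WT host libraries, which overlapped, and at E7.5 it was 4.56 against 5.01.

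Ndn encodes necdin, a protein of the MAGE family known from postmitotic neurons. Ndn stood at 172, 179, 190.4 and 178 CPM in Tet-TKO, a narrow range, and at 60.9 and 71.2 CPM in WT host libraries. The log2 fold change was 1.36 (SE 0.12). It was 1.20 without erythroid-like cells, 1.09 when visceral and yolk sac endoderm-like and ExE ectoderm-like cells were left out as well, and 0.77 as the mean over cell classes of equal weight. The part of the unequal mix of cell types in this difference was not tested.

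Magel2, whose product belongs to the MAGE family and acts with ubiquitin ligases, was at 9.94, 9.61, 11.3 and 11.7 CPM in Tet-TKO and at 3.03 and 3.38 CPM in WT host libraries. The groups were far apart, with a log2 fold change of 1.64 (SE 0.12). Mkrn3, a RING finger gene of the makorin family, was at 4.42, 5.93, 8.99 and 9.37 CPM in Tet-TKO and at 2.15 and 2.80 CPM in WT host libraries. Here Tet-TKO libraries 3 and 4 were higher than libraries 1 and 2, and the log2 fold change of 1.43 had a wider error (SE 0.30). Peg12, a relative of the Frat genes whose products bind GSK3, was at 15.7, 18.8, 29.2 and 29.9 CPM in Tet-TKO and at 7.69 and 12.2 CPM in WT host libraries. It showed the same split of the Tet-TKO libraries, with a log2 fold change of 1.12 (SE 0.29). The split was not particular to the cluster, since Tet1, Tet2 and Tet3 had it too. Tet3 was at 37.5 and 36.4 CPM in Tet-TKO libraries 3 and 4, against 23.5 and 22.5 CPM in libraries 1 and 2. Whether the split goes with the greater depth of libraries 3 and 4 was not tested.

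Ube3a encodes the E3 ubiquitin ligase after which the HECT domain is partly named. It stood at 131, 134, 166 and 164 CPM in Tet-TKO and at 125 and 124 CPM in WT host libraries. Libraries 1 and 2 of Tet-TKO were little above the WT host libraries, and the log2 fold change was 0.16 (SE 0.09). For each of the 7 genes every Tet-TKO library was above both WT host libraries, which held for 23.6% of the 19818 genes with at least 60 UMIs. The log2 fold changes of the 6 paternally expressed genes lay between the percentiles 94.2 and 97.6 of all genes tested, and that of Ube3a at 62.2. The order of the libraries and these percentiles concern the difference for which the genes were chosen. They are no independent evidence.

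**Figure D1:**
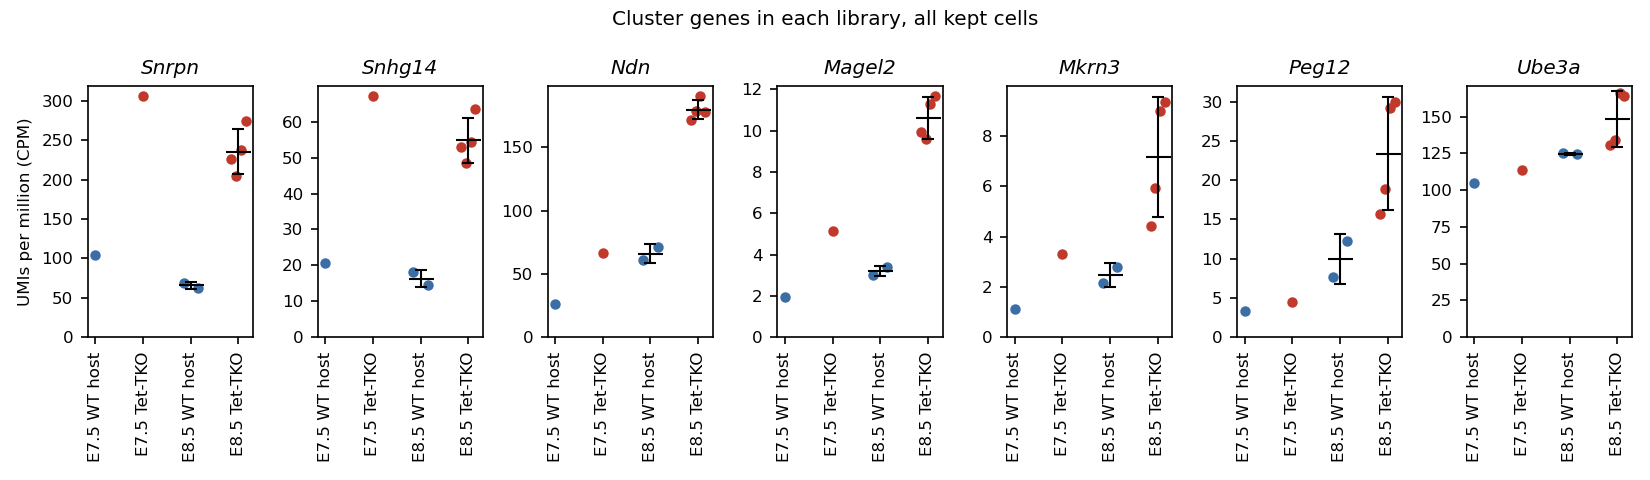
Level of each gene in every library in CPM (linear axis), by stage and genotype, with the mean and SD of the E8.5 groups of 4 Tet-TKO libraries and 2 libraries of WT host. Snrpn, Snhg14, Ndn and Magel2 have wide gaps between genotypes at E8.5, and Mkrn3 and Peg12 have Tet-TKO libraries 3 and 4 above libraries 1 and 2.

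Counts were then summed within cell classes, which sets aside differences in cell numbers. At E8.5, 31 classes had at least 10 cells in at least 2 libraries of each genotype, and 20 of them had a cell type name from marker genes. All classes were cut from the same libraries and are not independent of each other. Snrpn was called as higher in Tet-TKO cells in 19 of 31 classes, Snhg14 in 9 of 30 and Ndn in 2 of 31. Over all class tests, 0.234% of genes were called as higher and 0.343% as lower. No gene of the cluster was called as lower in a class. Magel2, Mkrn3, Peg12 and Ube3a were called by edgeR in 0 of the 18, 19, 27 and 31 classes in which they passed the filter on low counts. These counts too concern the difference for which the genes were chosen. At an unadjusted p under 0.05 they were higher in 11, 15, 16 and 5 of these classes, and DESeq2 called them in 3, 1, 1 and 0. Over all class tests, 5.58% of genes were higher at that p and 0.418% were called as higher by DESeq2.

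All Tet-TKO libraries lay above all WT host libraries in 30 of 31 classes for Snrpn, 29 for Snhg14, 25 for Ndn, 12 for Magel2, 21 for Mkrn3, 20 for Peg12 and 5 for Ube3a. The same held for 10.9% of all pairs of gene and class with at least 60 UMIs, a limit that was not set for the counts above. The opposite order was found in 0 classes for each gene. The order of the libraries too concerns the difference for which the genes were chosen. The classes share the same libraries, so a shift of 1 library can recur in many of them. The median log2 fold change over the classes in which a gene passed the filter was 1.38 for Snrpn, 1.40 for Snhg14, 0.79 for Ndn, 1.13 for Magel2, 1.29 for Mkrn3, 0.84 for Peg12 and 0.19 for Ube3a. The number of calls leaned on both WT host libraries. Without WT host library 1, Snrpn was called in 5 classes and Snhg14 in 1, and without WT host library 2 in 2 and 1. Ndn was called in 0 of 31 classes without WT host library 2, and also when the alike Tet-TKO libraries were summed, with 23 and 24 classes higher at an unadjusted p under 0.05 in edgeR against 2.87% and 4.57% of all class tests. DESeq2 called it in 3 classes on all 6 libraries.

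**Figure D2:**
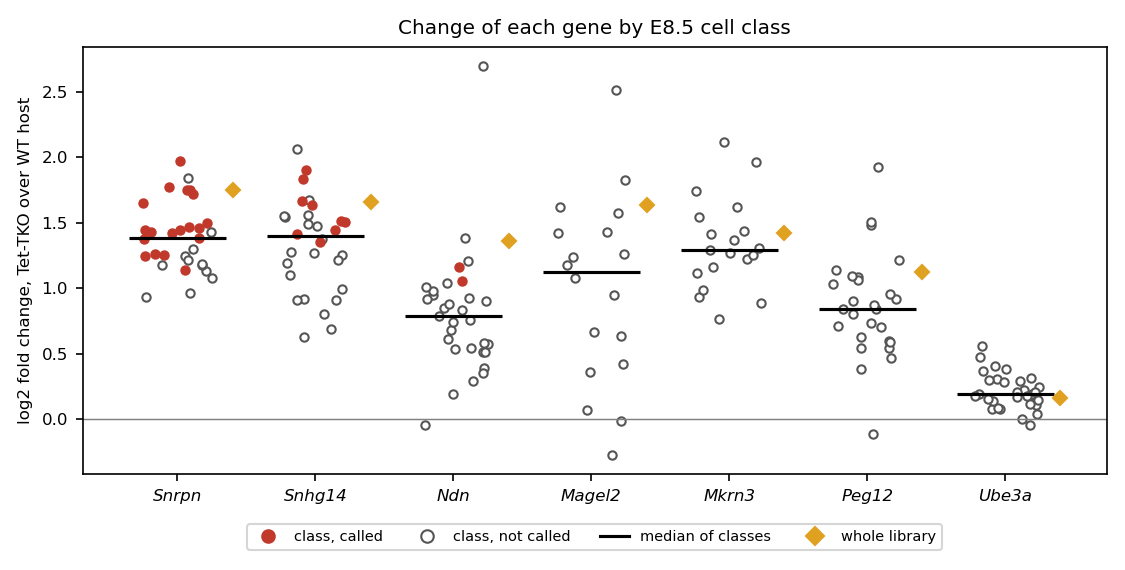
Log2 fold change of Tet-TKO over WT host for each gene, with a point for each E8.5 cell class in which the gene passed the filter on low counts, and with the median over classes and the whole-library value marked. The Snrpn points lie between 0.93 and 1.97 and the Ube3a points between -0.04 and 0.56, whereas the Ndn points spread from -0.05 to 2.70. The highest Ndn and Ube3a points are from the unnamed cluster 39, with 12 and 52 cells in WT host libraries 1 and 2. Markers of germ cells and of ExE ectoderm were both raised in it.

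The smallest Snrpn difference was in cardiomyocyte-like cells, with 190.1, 147, 178 and 197 CPM in Tet-TKO and 91.7 and 89.0 CPM in WT host libraries (log2 fold change 0.93). The largest was in haematoendothelial progenitor-like cells, with 180.0, 162, 246 and 233 CPM in Tet-TKO and 52.0 and 49.8 CPM in WT host libraries (log2 fold change 1.97, SE 0.18). The groups were separate in both. The WT host level was lower in the latter, but the classes did not follow such an order throughout. Mesenchyme-like cells had a WT host mean of 142 CPM and a Tet-TKO mean of 418 CPM. Blood progenitor-like cells had means of 46.8 and 106 CPM. In allantois-like cells Snrpn was at 291, 254, 372 and 407 CPM against 105 and 88.0 CPM, with Tet-TKO libraries 3 and 4 again above libraries 1 and 2. In erythroid-like cells, with 184 Tet-TKO and 2765 WT host cells, it was at 149, 129, 145 and 92.0 CPM against 44.9 and 40.9 CPM. The genotypes fill the clusters of this class differently, since cluster 5 held 1523 of the WT host cells and 10 of the Tet-TKO cells, while cluster 20 held 769 and 101. Within cluster 20 Snrpn was at 145, 111 and 112 CPM in Tet-TKO libraries 1 to 3 and at 38.5 and 40.4 CPM in WT host libraries, and Tet-TKO library 4 had too few cells. The 1 class with overlap was the unnamed cluster 38, with 84 WT host cells.

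Ndn was called in cardiomyocyte-like cells, where 0.222% of genes were called as higher, at 333, 275, 276 and 294 CPM in Tet-TKO and 130.0 and 126 CPM in WT host libraries. It was also called in paraxial head mesoderm-like cells, where 0.166% of genes were called, at 263, 280.5, 323 and 271 CPM against 128 and 142 CPM. Both are mesodermal classes in which the Tet-TKO libraries lay far above the WT host libraries. In mesenchyme-like cells Ndn reached 383, 373, 372 and 347 CPM against 185 and 215 CPM, a separation without a call. Of the 2 clusters of this class, cluster 14 held 465 of 608 WT host cells and cluster 16 held 811 of 1392 Tet-TKO cells. Ndn was at 402, 400.2, 399 and 386 CPM against 202 and 229.6 CPM in cluster 14, and at 371, 353, 351 and 310.1 CPM against 127 and 170.2 CPM in cluster 16, without overlap in either. In blood progenitor-like cells it was at 21, 23.1, 26.7 and 13.5 CPM against 19.99 and 24.9 CPM, and the groups overlapped (log2 fold change -0.05, SE 0.25). In the same cells Snrpn was at 93.5, 106, 103 and 122 CPM against 58.6 and 34.99 CPM and did not overlap. Whether the Ndn difference itself differed between classes was not tested.

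In forebrain-like cells Ndn was at 94.4, 137, 155 and 170.5 CPM in Tet-TKO and 98.2 and 117 CPM in WT host libraries, with overlap. In midbrain and hindbrain-like cells it was at 148, 157, 153 and 153 CPM against 98.6 and 116 CPM, without overlap. Mkrn3 and Peg12 had the split between Tet-TKO libraries in forebrain-like cells as well. Mkrn3 was there at 4.78, 10.8, 30.7 and 29.3 CPM in Tet-TKO and 4.05 and 6.76 CPM in WT host libraries. In midbrain and hindbrain-like cells Peg12 was at 60.3, 58.5, 81.2 and 78.5 CPM against 25.8 and 39.3 CPM, without overlap.

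**Figure D3:**
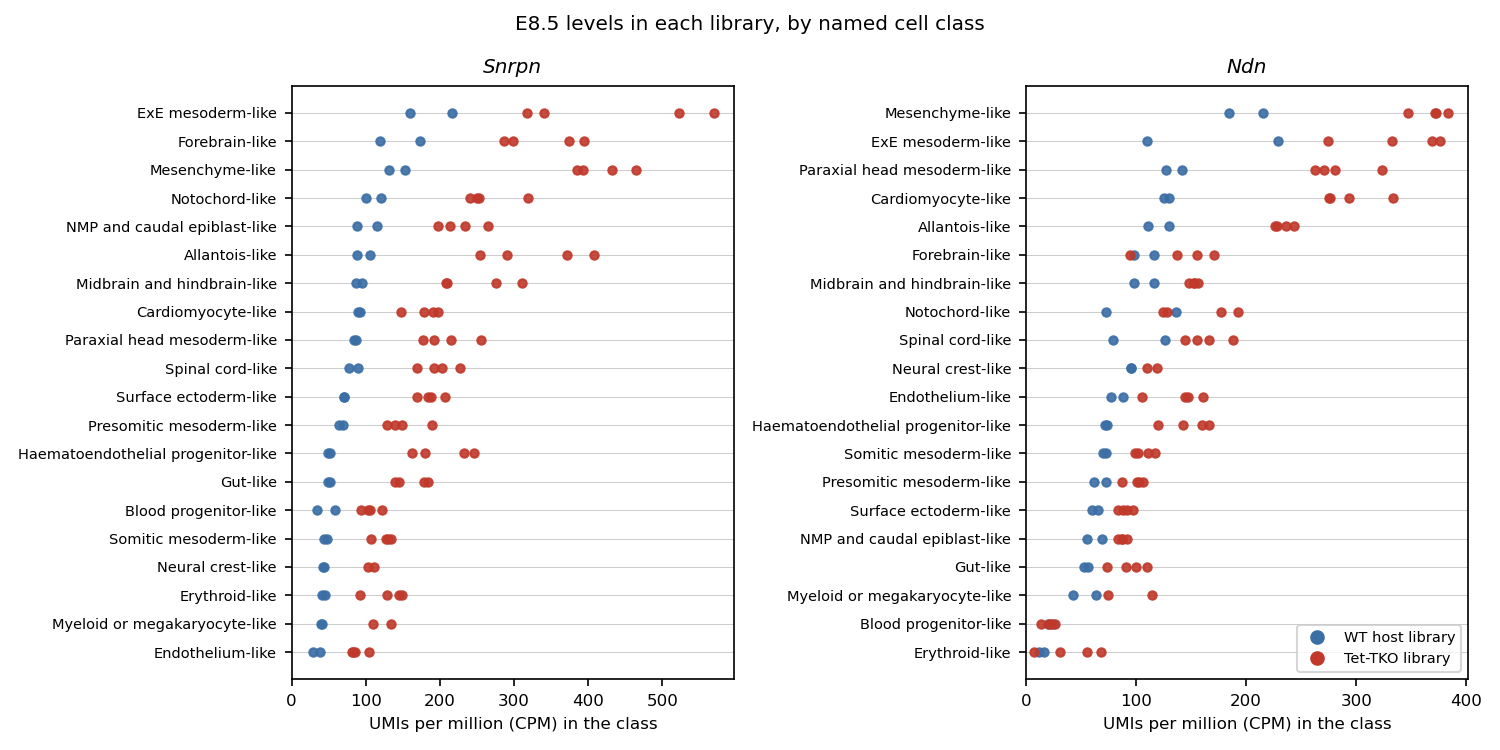
Snrpn and Ndn levels in CPM in the named E8.5 classes, with a point for each Tet-TKO and each WT host library. Snrpn is separate between genotypes in all 20 named classes compared, and Ndn overlaps in forebrain-like, notochord-like, blood progenitor-like and erythroid-like cells.

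Among WT host cells at E8.5, 21 named classes had at least 10 cells in both libraries. Snrpn was highest in ExE mesoderm-like cells, at 189 ± 40.1 CPM (SD, n = 2), followed by forebrain-like cells at 146 ± 37.6 CPM and mesenchyme-like cells at 142 ± 15.7 CPM, and these neighbours overlapped. It was lowest in endothelium-like cells, at 33.5 ± 5.97 CPM, and in visceral and yolk sac endoderm-like cells, at 8.37 ± 1.27 CPM. Of the 20 neighbouring pairs in the order, 13 overlapped, the pairs of the first 3 classes among them. The mesenchyme-like value of Snrpn joins unlike clusters. It was at 106 and 114 CPM in cluster 14 (465 WT host cells) and at 313 and 186 CPM in cluster 16 (143 cells). The first places thus depend on how clusters were joined.

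Ndn was highest in mesenchyme-like cells, at 200.0 ± 21.9 CPM (SD, n = 2), ahead of ExE mesoderm-like cells at 169.7 ± 83.9 CPM and paraxial head mesoderm-like cells at 135 ± 9.98 CPM. It was lowest in blood progenitor-like (22.4 ± 3.45 CPM), erythroid-like (14.3 ± 2.87 CPM) and visceral and yolk sac endoderm-like cells (10.2 ± 6.33 CPM), and 16 of 20 neighbouring pairs overlapped. The erythroid-like value of Ndn joins unlike clusters. It was at 3.83 and 2.80 CPM in cluster 5 (1523 WT host cells), 7.04 and 5.98 CPM in cluster 20 (769 cells) and 44.7 and 48.8 CPM in cluster 29 (434 cells). Peg12 was highest in forebrain-like, midbrain and hindbrain-like and spinal cord-like cells, at 33.1 ± 13.3, 32.6 ± 9.56 and 22.0 ± 5.48 CPM, which overlapped. Mkrn3 was highest in midbrain and hindbrain-like cells, at 6.09 ± 2.996 CPM, and Magel2 in haematoendothelial progenitor-like cells, at 8.46 ± 0.419 CPM. For them 18 and 19 of 20 neighbouring pairs overlapped. Snhg14 followed Snrpn in having ExE mesoderm-like cells first (40.2 ± 28.7 CPM) and visceral and yolk sac endoderm-like cells last (2.43 ± 1.18 CPM). Its first place rested on WT host library 1, at 60.5 CPM against 19.8 CPM in library 2, and 17 of 20 neighbouring pairs overlapped. Within the mesenchyme-like class, Snhg14 was at 68.0 and 50.1 CPM in cluster 16 and at 31.2 and 28.9 CPM in cluster 14. Ube3a ranged only from 97.0 to 163 CPM, and all 20 of its neighbouring pairs overlapped.

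Over 33 WT host classes, the genes whose log2(CPM + 1) was most like that of Snrpn by Pearson's r were Evl (0.80), Dgcr6 (0.79), Khdrbs3 (0.78), Nfyb (0.75) and Irak1bp1 (0.74), among 5529 genes with a mean of at least 20 CPM. Those most like Ndn were Tuba1a (0.92), Jam3 (0.91), Btbd2 (0.90), Cdc42se2 (0.89) and Sh3bgrl (0.88). Within the cluster, r was 0.71 for Snrpn with Ndn, 0.70 for Snrpn with Snhg14, 0.80 for Ndn with Peg12, 0.74 for Ndn with Magel2, 0.63 for Snrpn with Magel2, 0.59 for Ndn with Mkrn3 and 0.54 for Snrpn with Peg12. It was lower for Ndn with Snhg14 (0.49) and Snrpn with Mkrn3 (0.34), and was 0.22 for Ndn with Ube3a and 0.20 for Snrpn with Ube3a. All classes share the same 2 libraries and differ in cell number, and these values are descriptions.

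To compare the share of cells in which a gene was counted, each cell was thinned to 5000 UMIs, and cells with fewer were left out (76 to 738 per library). At E8.5 Snrpn was counted in 61.8%, 59.8%, 61.9% and 67.2% of Tet-TKO cells and in 27.0% and 26.3% of WT host cells. At least 2 Snrpn UMIs were found in 29.6%, 27.2%, 31.1% and 35.9% of Tet-TKO cells and in 6.28% and 5.06% of WT host cells. A higher Snrpn level thus went with more cells in which it was counted and with more cells that held several UMIs. At a fixed depth both shares depend on the mean level and are not a separate result. Without thinning, the Snrpn shares were 83.2% to 95.1% in Tet-TKO and 53.8% and 51.2% in WT host libraries.

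Ndn was counted after thinning in 49.9%, 53.2%, 53.5% and 49.8% of Tet-TKO cells and in 25.6% and 27.0% of WT host cells. Snhg14 was counted in 19.9% to 25.6% of Tet-TKO cells against 8.93% and 6.96% of WT host cells, and Magel2 in 4.35% to 5.21% against 1.62% and 1.64%. As a class with low levels, WT host erythroid-like cells had Ndn in 7.29% and 4.32%, Snrpn in 19.1% and 18.1% and Magel2 in 0.256% and 0.267% of cells. Their median depths were 19568.5 and 16232 UMIs, against 15228 and 13663.5 UMIs over all cells of the same libraries. At E8.5 the shares of Ndn, Snrpn and Magel2 over all cells were above those of the WT host erythroid-like cells in both genotypes. The shares thus differed between cell classes, and this is not a comparison of genotypes. For Ube3a the shares were 46.4%, 46.9%, 54.9% and 55.0% in Tet-TKO and 45.8% and 45.0% in WT host cells, and libraries 1 and 2 lay close to WT host.

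**Figure D4:**
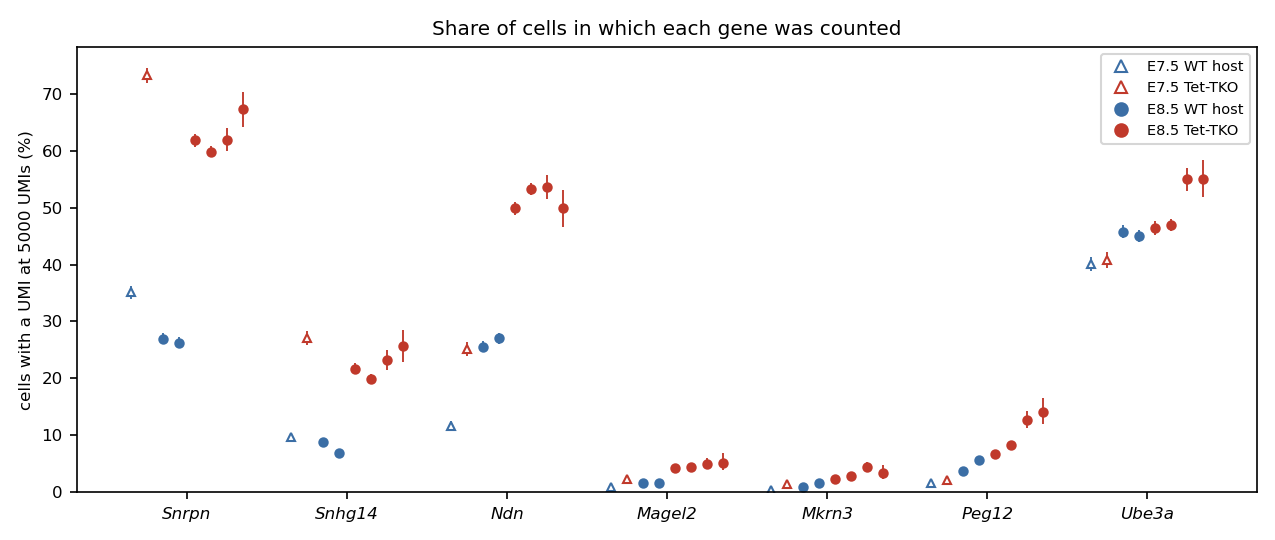
Percentage of cells with at least 1 UMI of each gene after thinning to 5000 UMIs per cell, for each library of both stages, with exact 95% binomial intervals that cover counting error only. The Snrpn shares lie between 59.8% and 73.2% in Tet-TKO and between 26.3% and 35.1% in WT host libraries. For Ube3a at E8.5, Tet-TKO libraries 1 and 2 lie near the WT host libraries, and libraries 3 and 4 lie higher.

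At E7.5 there was 1 library per genotype, so the values have no replicate check and no test, and intervals cover counting error only. Snrpn was at 307 CPM in Tet-TKO and 104 CPM in WT host cells, a ratio of 2.94 (exact 95% interval 2.88 to 3.01). The ratio was 3.24 (3.08 to 3.40) for Snhg14, 2.57 (2.46 to 2.69) for Ndn, 2.66 (2.26 to 3.14) for Magel2 and 2.89 (2.34 to 3.59) for Mkrn3. It was 1.34 (1.17 to 1.55) for Peg12 and 1.09 (1.06 to 1.11) for Ube3a. A level at least 2-fold higher in Tet-TKO was thus seen for 5 of the 7 genes, against 4.99% of the 20505 genes with more than 3 UMIs in both libraries. This count too concerns the difference for which the genes were chosen and is no independent evidence. ExE ectoderm-like cells were 26.9% of the WT host and 0.272% of the Tet-TKO library. Without them the ratios were 2.41 for Snrpn, 2.60 for Snhg14, 1.89 for Ndn, 1.89 for Magel2, 2.65 for Mkrn3, 1.62 for Peg12 and 1.01 for Ube3a. Ndn and Magel2 were then under 2-fold.

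Within E7.5 classes, the Snrpn ratio was above 1 in 21 of the 23 classes with enough UMIs, with the whole interval above 1 in 19 and a median of 2.18. In epiblast-like cells Snrpn stood at 455 CPM in Tet-TKO and 318 CPM in WT host cells, a ratio of 1.43 (1.34 to 1.53). In gut-like cells it stood at 282 and 95.6 CPM, a ratio of 2.95 (2.58 to 3.38). The WT host level was thus higher in the epiblast-like cells, where the ratio was smaller, and a relation over all classes was not tested. The highest ratio, 17.3 (7.72 to 37.2), was in visceral and yolk sac endoderm-like cells and rested on 12 and 20 UMIs. The Ndn ratio was above 1 in 21 of 23 classes and its interval in 13, with a median of 1.61. For Ube3a the ratio was above 1 in 10 of 23 classes, and its median was 0.98. All these classes come from the same 1 library per genotype and are not replicates.

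Between stages, Snrpn was lower at E8.5 than at E7.5 in both genotypes, at 0.63 of its E7.5 level in WT host and 0.77 in Tet-TKO cells. Ndn was higher at E8.5, by 2.56-fold in WT host and 2.71-fold in Tet-TKO cells, and Peg12 by 3.02-fold and 5.27-fold. There were 4.61 and 4.03 Snrpn UMIs per Ndn UMI in the Tet-TKO and WT host libraries of E7.5, and 0.883 to 1.54 in those of E8.5. The 2 genes thus went opposite ways between stages, with the Tet-TKO level above the WT host level for each at both stages. Each stage also holds other cell types, and with 1 library per genotype at E7.5 this was not tested.

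Of 17 other genes of the region, 16 were tested over whole libraries at E8.5. edgeR called 0 of them, 5 were higher at an unadjusted p under 0.05, and DESeq2 called 2. Their median log2 fold change was 0.44, against 0.02 over all genes tested and 1.43 over the 7 genes of the cluster. Of all genes tested, 12.2% were higher at that unadjusted p and 2.12% were called as higher by DESeq2. The log2 fold changes of the 16 genes ranged from -0.34 to 1.83. Every Tet-TKO library was above both WT host libraries for 8 of them, against 23.6% of the 19818 genes with at least 60 UMIs. The largest, named after its value was seen, was that of Oca2, a gene of melanosome function, at 0.249, 0.325, 0.314 and 0.353 CPM in Tet-TKO and 0.0838 and 0.0789 CPM in WT host libraries (log2 fold change 1.83, SE 0.30, adjusted p = 0.0129 in edgeR). Chrna7, an acetylcholine receptor subunit gene beyond Peg12, followed at 1.04 (SE 0.21, adjusted p = 0.0254 in edgeR), and Klf13, a transcription factor gene, was at -0.02 (SE 0.08). Both were also named after their values were seen.

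With the 16 genes above included, 43 annotated features of the interval outside the cluster passed the filter. Of these, 1 was called, the gene model Gm38393. It spans 59974149 to 60005064 on the minus strand and overlaps Snrpn. It stood at 16.6, 14.3, 18.0 and 20.3 CPM in Tet-TKO and at 4.24 and 4.01 CPM in WT host libraries, with a log2 fold change of 1.98 (SE 0.14). The 43 features had a median log2 fold change of 0.48, and 10 of them reached at least 1, Oca2 and Chrna7 among them. No share over all genes is given for that limit. Some of the 10 were under 1 CPM in every library, and in some Tet-TKO libraries 3 and 4 were far above libraries 1 and 2. Gm38393 may share reads with Snrpn and is not a separate measurement of the region.

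**Figure D5:**
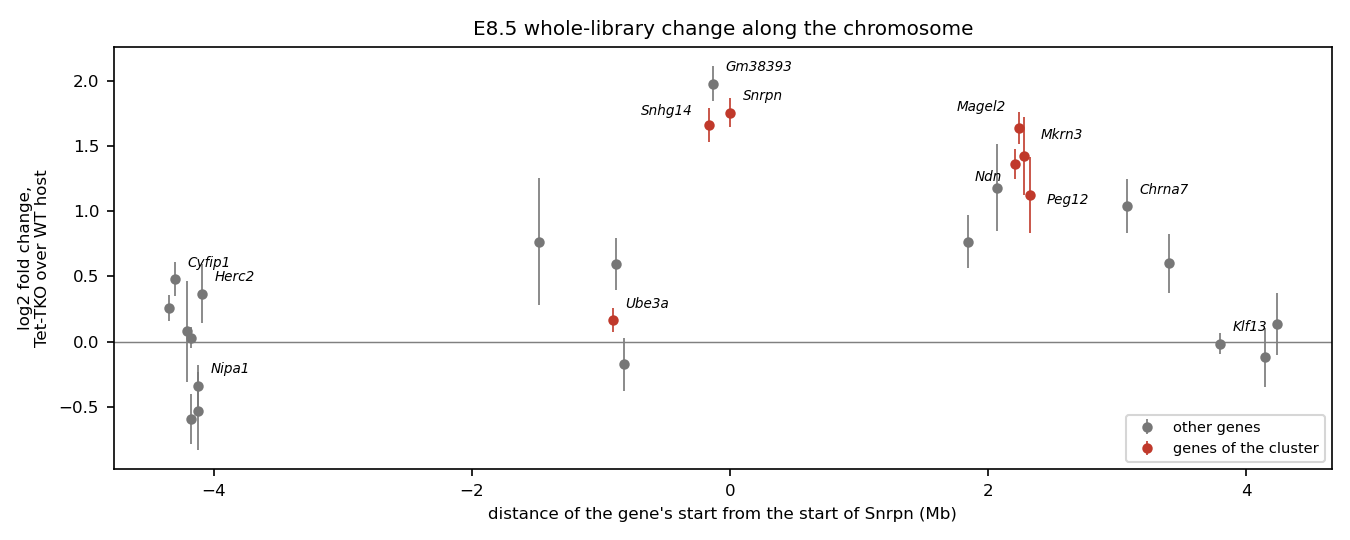
E8.5 whole-library log2 fold change of Tet-TKO over WT host against the distance of each gene's start from the annotated start of Snrpn, for 26 genes of the interval with a mean of at least 0.5 CPM, with the SE of edgeR's fit. Snhg14, Snrpn and the group from Ndn to Peg12 lie between 1.12 and 1.75, and Ube3a lies at 0.16.

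Of 18 paternally expressed genes outside the cluster, 2 were called as higher and 0 as lower, against 0.588% and 2.06% of all genes, and their median log2 fold change was 0.83. They were Zdbf2, a zinc finger gene (1.91, SE 0.21, adjusted p = 0.00389 in edgeR), and Plagl1, a zinc finger transcription factor gene (1.79, SE 0.18). Of the 18, 11 were higher and 2 lower at an unadjusted p under 0.05 in edgeR, against 12.2% and 14.5% of all genes. DESeq2 called 5 as higher and 0 as lower, against 2.12% and 4.74%. In 14 every Tet-TKO library was above both WT host libraries and in 2 below both, against 23.6% and 18.2% of genes with at least 60 UMIs. Of 21 maternally expressed genes, 0 were called as higher by edgeR or DESeq2, with 4 higher at an unadjusted p under 0.05. Another 2 were called as lower, H13, a signal peptide peptidase gene (-1.36, SE 0.11), and Asb4, a gene of an ankyrin repeat and SOCS box protein (-1.89, SE 0.19). The median of the maternal list was 0.06. All 4 of these calls were lost without WT host library 1 and when the alike Tet-TKO libraries were summed, and H13 alone was called without WT host library 2. By class, Zdbf2 was called as higher in 14 of 31 and Plagl1 in 4 of 25, and H13 was called as lower in 17 of 30 and Asb4 in 11 of 24, beside the 19 of 31 for Snrpn. With WT host library 1 or 2 left out, each of these 4 genes was called in at most 4 classes.

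A list of 16 genes that maintain imprints, set DNA methylation or take part in its removal included Tet1, Tet2 and Tet3, the genes disrupted in the Tet-TKO line. Of the 16, edgeR called 0 over whole libraries, while 3 were higher and 1 lower at an unadjusted p under 0.05 and DESeq2 called 1 in each direction. Of all genes, 14.5% were lower at that p and 4.74% were called as lower by DESeq2. The log2 fold changes of the 16 genes ranged from -3.92 to 2.01, with a median of 0.11.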

How the data were processed

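The samples were 8 libraries of sorted chimaera cells, grouped by stage and genotype from the labels. The authors used Cell Ranger with mm10 and the GRCm38.92 annotation, extended by tdTomato, and the files they deposited hold unnormalised UMI counts for each gene in each barcode. Their header names software version 3.1.0, which is not the version stated in the methods. Following the methods, a cell was kept if it had 1500 UMIs or more, with mitochondrial genes taking no more than 30% and ribosomal genes no more than 35% of them. After this filter the median depth was 12176 to 68704 UMIs per cell at E8.5.

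Clusters came from 2500 variable genes, without the genes reported here, 50 principal components, correction between libraries by 20 mutual nearest neighbours and the Leiden algorithm at resolution 2 on 15 neighbours (scanpy 1.11.5, leidenalg 0.10.2, Python 3.11.15). They gave 35 classes at E8.5, 23 of them named from markers. Names were rebuilt from the counts and may differ from those of the study. UMI counts were summed over each library, and over each class within a library if it held 10 cells or more, and were tested with edgeR 4.0.16 in R 4.3.3 (filterByExpr, TMM, quasi-likelihood test, Benjamini-Hochberg adjustment over all genes of a fit). The SE is the absolute log2 fold change over the square root of F. The E7.5 libraries were not tested and have exact 95% intervals of counting error. The steps were tested on simulated data. Doublets were removed only as an alternative.

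The 7 genes and the gene lists were chosen with earlier results of these data known. Outside the cluster, genes were named when called over whole libraries or in at least 50% of the classes tested, and others are marked as named after their values were seen. For Snrpn and Ndn the 5 most similar genes are given. The values of 1 neighbouring gene are not reported here. The alternatives were DESeq2 1.42.0 and its size factors, no filter on low counts, a replicate block, sums of the alike Tet-TKO libraries, each library left out, at least 3000 UMIs, cells whose tdTomato matches the sort, doublets or erythroid-like cells removed, resolution 1, no correction, at least 30 cells, an adjusted p of 0.05, equal class weights and no thinning. Leaving out ExE ectoderm-like cells at E7.5 and 3 extraembryonic or erythroid classes at E8.5 was chosen after seeing the data, as was splitting the E8.5 libraries into 2 sets.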

Additional observations from a re-analysis of the deposited data

How the results depend on the processing

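No whole-library log2 fold change of a gene of the cluster changed direction under any alternative run. Summing the alike Tet-TKO libraries gave whole-library log2 fold changes of 1.76 for Snrpn, 1.67 for Snhg14, 1.38 for Ndn and 1.65 for Magel2, all without a call, and calls in 5 classes for Snhg14 and 0 for Ndn, which was higher in 24 at an unadjusted p under 0.05. With 1 library left out, the log2 fold changes were 1.71 to 1.79 for Snrpn, 1.53 to 1.79 for Snhg14, 1.22 to 1.50 for Ndn, 1.53 to 1.74 for Magel2, 1.21 to 1.65 for Mkrn3, 0.79 to 1.51 for Peg12 and 0.13 to 0.19 for Ube3a, with all 4 calls lost without WT host library 1. The classes called were then 2 to 20, 1 to 10 and 0 to 3 for Snrpn, Snhg14 and Ndn, and the class medians 0.70 to 0.90 for Ndn and 0.95 to 1.35 for Magel2. Without 1 WT host library the lone library is assumed to vary like the Tet-TKO libraries. With equal class weights the log2 fold changes were 1.37 for Snrpn, 1.41 for Snhg14, 0.77 for Ndn and 1.20 for Magel2, and without the 3 classes scarce in Tet-TKO cells 1.09 for Ndn and 1.36 for Magel2.

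The labels do not say whether the replicate numbers pair the samples. Deviations of same-numbered libraries correlated at 0.41 and -0.11 over 15314 genes. Tet-TKO libraries 1 and 2 deviated with WT host library 1 (0.41 and 0.11) and libraries 3 and 4 with WT host library 2 (0.21 and 0.31). The labels do not give this grouping. Each correlation with 1 WT host library is that with the other with its sign reversed, so every Tet-TKO library must go with 1 of them. These correlations therefore cannot show a pairing or a grouping. Within these sets, chosen after seeing the data, the log2 ratios were 1.65 and 2.03 for Snrpn, 1.49 and 2.01 for Snhg14, 1.53 and 1.37 for Ndn, 1.69 and 1.76 for Magel2, 1.27 and 1.71 for Mkrn3, 1.16 and 1.27 for Peg12 and 0.08 and 0.41 for Ube3a. A replicate block leaves Tet-TKO libraries 3 and 4 without a WT host library of the same number. It thus estimates the genotype difference from libraries 1 and 2 of each genotype alone, with little left to estimate the spread. It raised the calls over all 21075 genes from 124 to 497 higher and from 434 to 1204 lower, and DESeq2 called 447 and 999. With a replicate block, Mkrn3 was called over whole libraries at 1.07, the classes called were 18 for Snhg14, 8 for Ndn, 5 for Magel2 and 6 for Mkrn3, and the Magel2 class median was 0.96. DESeq2 called Mkrn3 at 1.42 and Peg12 at 1.12 over whole libraries, and Magel2 in 3, Mkrn3 in 1 and Peg12 in 1 class. Without the filter on low counts 204 of 36070 genes were called as higher over whole libraries, and the classes called were 20 for Snhg14, 6 for Ndn, 6 for Magel2, 5 for Mkrn3 and 3 for Peg12. At an adjusted p of 0.05 with no minimum fold change they were 20, 10, 3, 2 and 1 for the same genes. At resolution 1 they were 1 for Ndn and 1 for Magel2, with a Ndn median of 0.85. Without correction between libraries only 11 classes could be compared, and they were 8 for Snrpn, 5 for Snhg14, 1 for Magel2 and 1 for Peg12, with a Snrpn median of 1.16.

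At E7.5 without ExE ectoderm-like cells the log2 ratios were 1.27 for Snrpn, 1.38 for Snhg14, 0.92 for Ndn, 0.92 for Magel2, 0.70 for Peg12 and 0.014 for Ube3a. Without thinning, the E8.5 shares of cells with a UMI differed by 44.3 points for Snhg14, 37.2 for Ndn, 16.1 for Magel2, 16.6 for Mkrn3, 27.0 for Peg12 and 10.4 for Ube3a. The causes were not tested.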
